A study of Homo sapiens with 6 samples.

Results

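The genes described here carry iron into, store it in and export it from the cell, and sense how much of it there is. They are the transferrin receptors TFRC and TFR2, the iron transporters SLC11A2 and SLC40A1, the ferritin subunits FTH1 and FTL, the iron regulatory proteins IREB2 and ACO1, and the turnover adaptors FBXL5 and NCOA4. These 10 genes were taken by name from a table of 27238 rows, where each has 1 row. The set was drawn up around TFRC, which was selected on its FPKM difference between the groups of the same 6 libraries, so the values of these 10 genes are given as a description and no p-value is attached to them. Poly(A) RNA was measured by sequencing in QBC-939, an established human cholangiocarcinoma (bile duct cancer) line. One group of 3 libraries came from cells treated with Bmi1 shRNA, a short hairpin RNA that lowers BMI1, a subunit of the Polycomb repressive complex PRC1. The other group of 3 libraries came from cells treated with scrambled shRNA, called control here. Both groups were the same line in DMEM with fetal bovine serum and were treated for 48 h, and the libraries of each group came from 3 separate transfections. The labels give no second hairpin, no rescue and no measure of iron. In GENCODE 29 (GRCh38), matched by gene symbol, the receptor genes TFRC and TFR2 lie at chr3:196027183-196082189 (minus strand) and chr7:100620416-100642779 (minus strand). The transporter genes SLC11A2 and SLC40A1 lie at chr12:50979401-51028566 (minus strand) and chr2:189560579-189583758 (minus strand), and the ferritin genes FTH1 and FTL at chr11:61959718-61967660 (minus strand) and chr19:48965301-48966878 (plus strand). IREB2 and ACO1 lie at chr15:78437431-78501456 (plus strand) and chr9:32384603-32454769 (plus strand), and FBXL5 and NCOA4 at chr4:15604539-15681679 (minus strand) and chr10:46005088-46030714 (minus strand).

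Most cells take up iron as transferrin bound to TFRC at the cell surface, reduce it in the endosome and release it to the cytosol through SLC11A2. What is not used is stored inside ferritin, a shell of FTH1 and FTL chains, or leaves through SLC40A1 (ferroportin). When iron is scarce, the iron regulatory proteins ACO1 (IRP1) and IREB2 (IRP2) bind a hairpin in certain mRNAs, the iron-responsive element (IRE): an IRE in the 3′ UTR, as in TFRC, shields the mRNA from decay, while an IRE in the 5′ UTR, as in the ferritins and SLC40A1, blocks translation and need not change the mRNA level. When iron is plentiful, FBXL5 marks IREB2 for degradation.

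The hairpins that place these mRNAs in the 3′ or the 5′ class are shown because the comparison of the classes rests on them. They were found in GENCODE 29 transcripts (GRCh38) by searching the sense strand for a C, any 5 bases and then CAGTGN, where those 5 bases pair with the 5 after the loop or, in a looser form, do so with 1 unpaired base on the 3′ side. The bulged C and the loop bases CAGTG are in capitals. TFRC held 4 matches in its 3′ UTR, all with 5 paired bases, in 3 of its 4 coding transcripts. A hairpin outside both forms would be missed, so 4 is a count of matches and not of all IREs.
TFRC site 1, chr3:196050979-196051007, minus strand: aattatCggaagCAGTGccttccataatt
TFRC site 2, chr3:196050575-196050603, minus strand: cattatCgggagCAGTGtcttccataatg
TFRC site 3, chr3:196050510-196050538, minus strand: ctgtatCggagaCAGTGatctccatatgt
TFRC site 4, chr3:196050463-196050491, minus strand: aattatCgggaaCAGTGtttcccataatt
SLC11A2, 3′ UTR, chr12:50988269-50988297, minus strand: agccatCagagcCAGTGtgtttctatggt
FTH1, 5′ UTR, chr11:61967574-61967602, minus strand: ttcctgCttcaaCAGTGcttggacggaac
FTL, 5′ UTR, chr19:48965335-48965363, plus strand: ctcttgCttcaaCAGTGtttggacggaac
SLC40A1, 5′ UTR, chr2:189580661-189580689, minus strand: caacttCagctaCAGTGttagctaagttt

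The TFRC sites began 941, 1345, 1410 and 1457 bases after the stop codon in a 3′ UTR of 2658 bases, and pairs of them differed at 4 to 11 of their 29 bases. The FTH1 and FTL hairpins differed at 3 of 29 bases, T1C, C4T and C18T, counted from 1 at the 5′ end with the FTH1 base first. They lie 171 bases (FTH1) and 167 bases (FTL) before the start codon, in 7 of 8 coding transcripts of FTH1 and in the 1 of FTL. The SLC11A2 hairpin, which has the extra unpaired base, lies 34 bases after the stop codon in 5 of 18 coding transcripts, and that of SLC40A1 lies in 1 of 5. The deposited values are per gene, so how much of the SLC11A2 and SLC40A1 mRNA here carries the hairpin was not measured. Across 19644 coding genes only the longest coding transcript of each was searched, so the shares that follow are not on the footing of the counts above. Of these genes, 120 (0.611%) held a match with 5 paired bases in the 3′ UTR and 21 (0.107%) in the 5′ UTR. In that search no gene other than TFRC held 4 matches with 5 paired bases in its 3′ UTR. IREB2 held a match of the looser form in its 3′ UTR, a form that together with the stricter one was found in 1.58% of the coding genes. No match was found in ACO1, FBXL5, NCOA4 or TFR2.

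All 10 genes passed the filter of a mean of at least 1 FPKM (fragments per kilobase of transcript, scaled to the mapped fragments of each library, as deposited by the authors) over the 6 libraries, which 11016 rows passed. In a limma fit to log2(FPKM + 1) over those rows, 5 of the 10 were called higher (TFRC, SLC40A1, FTL, IREB2 and NCOA4) and 3 lower (TFR2, SLC11A2 and ACO1) in Bmi1 shRNA cells at a Benjamini-Hochberg adjusted p under 0.05. FTH1 and FBXL5 were not called. The background is high: 57.1% of all tested rows were called, 28.6% higher and 28.5% lower. In 8 of the 10 genes the values of the groups did not overlap, as in 65.4% of all tested rows (32.3% higher and 33.1% lower). The median log2 fold change (Bmi1 shRNA minus control) was 0.32 over the 10 genes and -0.02 over all tested rows. Because the same contrast shaped the choice of genes, nothing is read from these counts. In such bulk libraries fewer cells of a type and less RNA per cell cannot be told apart.

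**Figure D1:**
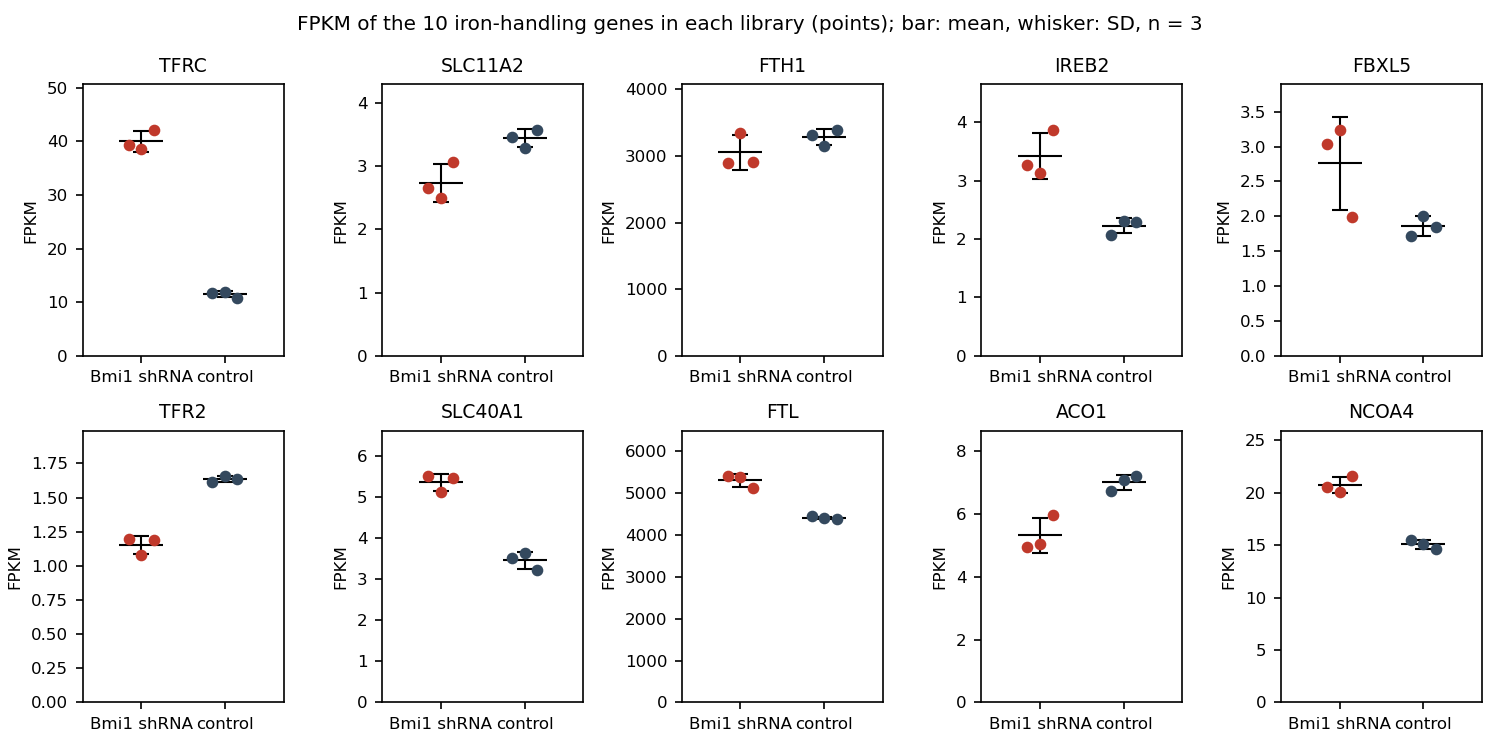
FPKM of the 10 iron genes in each library, with 3 Bmi1 shRNA libraries left of 3 control libraries; points are libraries and bars are the mean with the SD. TFRC stands at 38.6 to 42.2 FPKM in Bmi1 shRNA cells and at 10.8 to 11.9 FPKM in control cells, while FTH1 and FBXL5 overlap.

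TFRC, the main receptor for iron-loaded transferrin, was the gene with the widest difference of the 10. It measured 39.2, 38.6 and 42.2 FPKM in Bmi1 shRNA cells, against 11.8, 11.9 and 10.8 FPKM in control cells. Every Bmi1 shRNA library stood above every control library, and the groups were far apart relative to the spread within each. The means were 40.0 ± 1.91 FPKM in Bmi1 shRNA cells and 11.5 ± 0.608 FPKM in control cells (SD, n = 3 each), a ratio of 3.48. The log2 fold change was 1.71 ± 0.06 (SE), the 16th highest of the 11016 tested rows and 1 of 212 rows (1.92%) called higher with a log2 fold change of at least 1. It lay between 1.67 and 1.74 when any 1 library was left out.

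TFR2, the second transferrin receptor, known mainly as an iron sensor of liver and red-cell precursors, was scarce in both groups. It measured 1.19, 1.08 and 1.19 FPKM in Bmi1 shRNA cells, against 1.61, 1.66 and 1.64 FPKM in control cells. The groups did not overlap, and the direction was opposite to that of TFRC. The log2 fold change was -0.29 ± 0.06 (SE). With the trend of fold change with GC content and length removed, it was -0.02 and not called. With both as medians over the transcripts it was -0.06 and not called. The ratio of TFRC to TFR2 FPKM within a library averaged 34.7 ± 1.60 in Bmi1 shRNA cells and 7.04 ± 0.376 in control cells (SD, n = 3 each). That 4.93-fold difference is of values as deposited, and TFR2 has the higher GC content of the pair (62.0% against 41.5%).

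SLC11A2 (DMT1), the proton-coupled transporter that moves iron out of the endosome, measured 2.64, 2.49 and 3.06 FPKM in Bmi1 shRNA cells, against 3.46, 3.29 and 3.57 FPKM in control cells. The groups did not overlap, and Bmi1 shRNA replicate 3 came nearest to the control cells. The ratio of the means, 2.73 ± 0.297 FPKM in Bmi1 shRNA cells over 3.44 ± 0.144 FPKM in control cells (SD, n = 3 each), was 0.794. Its log2 fold change was -0.25 ± 0.08 (SE), and the call was lost without a filter on low values and when any 1 library other than Bmi1 shRNA replicate 3 was left out. The other mRNA of the 10 with a known 3′ IRE thus stood lower where TFRC stood higher.

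SLC40A1 (ferroportin), the iron exporter, measured 5.50, 5.12 and 5.45 FPKM in Bmi1 shRNA cells, against 3.51, 3.64 and 3.23 FPKM in control cells. All Bmi1 shRNA libraries were above all control libraries. The means of 5.36 ± 0.209 FPKM in Bmi1 shRNA cells and 3.46 ± 0.210 FPKM in control cells (SD, n = 3 each) gave a ratio of 1.55 and a log2 fold change of 0.51 ± 0.06 (SE). The mRNAs of the main receptor and of the exporter were therefore both higher in Bmi1 shRNA cells.

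FTH1, the ferritin heavy chain, which oxidises iron for storage, measured 2895, 3347 and 2909 FPKM in Bmi1 shRNA cells, against 3308, 3153 and 3391 FPKM in control cells. The groups overlapped, since Bmi1 shRNA replicate 2 stood above 2 of the 3 control libraries. The log2 fold change was -0.11 ± 0.07 (SE) and not called, and it was -0.18 and called lower without Bmi1 shRNA replicate 2. It was also called lower, at -0.20, with each library scaled to a total of 1000000.

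FTL, the ferritin light chain, which helps the iron core to form, measured 5406, 5397 and 5133 FPKM in Bmi1 shRNA cells, against 4445, 4402 and 4377 FPKM in control cells. The groups did not overlap. The means of 5312 ± 155 FPKM in Bmi1 shRNA cells and 4408 ± 34.5 FPKM in control cells (SD, n = 3 each) gave a ratio of 1.21 and a log2 fold change of 0.27 ± 0.04 (SE). FTH1 and FTL together held 2.34 ± 0.0800% of the summed FPKM in Bmi1 shRNA libraries and 2.29 ± 0.0298% in control libraries (SD, n = 3 each), with overlapping groups. The mix of the subunit mRNAs differed more: the ratio of FTH1 to FTL FPKM was 0.536, 0.620 and 0.567 in Bmi1 shRNA libraries, against 0.744, 0.716 and 0.775 in control libraries. This ratio was lower in all 3 Bmi1 shRNA libraries, and the ratio of its means, 0.771, lay between 0.740 and 0.796 when any 1 library was left out.

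Ferritin genes have processed copies elsewhere in the genome whose reads can be divided with the parent gene. The table held 16 FTH1 pseudogene rows, of which 9 were tested, and 5 FTL pseudogene rows, of which 1 was tested. FTH1P10 (log2 fold change 0.40, limma adjusted p = 0.00953), FTH1P5 (0.33, adjusted p = 0.0330) and FTLP3 (0.54, adjusted p = 0.0150) rose, and none fell. Once the trend of fold change with the GC content and length of the longest coding transcript was taken out, none of these 3 was called; with both as medians over the transcripts, FTH1P10 (0.45) and FTLP3 (0.58) were called higher. The tested rows FTH1P2, FTH1P3, FTH1P7, FTH1P8, FTH1P11, FTH1P20 and FTH1P23 were not called as deposited, and FTH1P2 was called lower (-0.43) with the trend of the longest coding transcript taken out. Summed, the FTH1 pseudogene rows amounted to 6.75 ± 0.301% of the FTH1 value in Bmi1 shRNA cells and 5.65 ± 0.312% in control cells (SD, n = 3 each). The FTL pseudogene rows amounted to 0.106% of the FTL value in Bmi1 shRNA cells and 0.0846% in control cells.

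**Figure D2:**
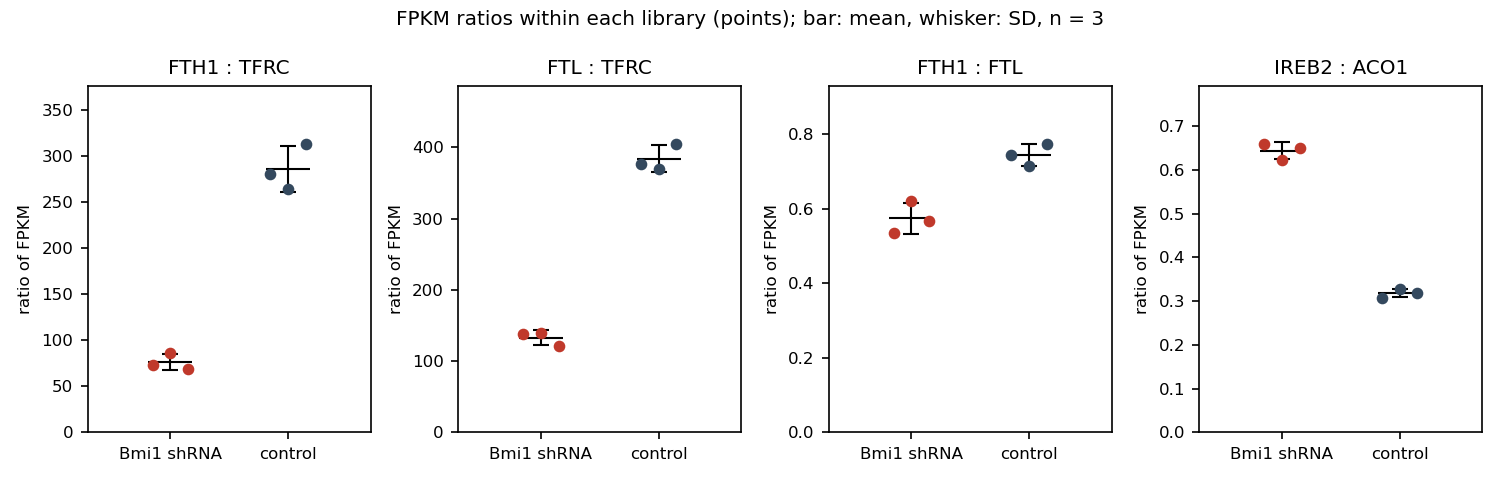
Ratios of FPKM within each library, on axes that start at 0, with Bmi1 shRNA libraries left of control libraries; points are libraries and bars are the mean with the SD. The groups do not overlap in any ratio shown, and IREB2 to ACO1 averages 0.643 in Bmi1 shRNA cells and 0.318 in control cells.

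Set against TFRC, the ferritin mRNAs were lower relative to the receptor. The ratio of FTH1 to TFRC FPKM was 73.8, 86.7 and 69.0 in Bmi1 shRNA libraries, against 281, 264 and 314 in control libraries. The ratio of FTL to TFRC was 138, 140 and 122 in Bmi1 shRNA libraries, against 377, 369 and 405 in control libraries. Neither ratio overlapped between the groups, and both rest mostly on TFRC, which differed far more than the ferritins.

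IREB2, the regulatory protein that is removed by degradation when iron is plentiful, measured 3.27, 3.13 and 3.87 FPKM in Bmi1 shRNA cells, against 2.07, 2.32 and 2.30 FPKM in control cells. ACO1, which works as an aconitase when it holds an iron-sulfur cluster and as an IRE-binding protein when it does not, measured 4.96, 5.03 and 5.96 FPKM in Bmi1 shRNA cells, against 6.73, 7.07 and 7.20 FPKM in control cells. The pair thus stood in opposite directions, each without overlap. The log2 fold change was 0.45 ± 0.08 (SE) for IREB2 and -0.34 ± 0.08 (SE) for ACO1. The ratio of IREB2 to ACO1 FPKM was 0.659, 0.622 and 0.649 in Bmi1 shRNA libraries, against 0.308, 0.328 and 0.319 in control libraries, a 2.02-fold difference that lay between 1.99 and 2.05 with any 1 library left out. That ratio is of values as deposited, and IREB2 has the lower GC content of the pair (38.3% against 45.7%). With the trend with GC content and length removed, the log2 fold changes were smaller, 0.12 for IREB2 and -0.20 for ACO1. With both as medians over the transcripts they were 0.10 and -0.16. ACO1 was the more abundant mRNA of the pair in every library of both groups.

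FBXL5, the iron-sensing subunit of the ubiquitin ligase that removes IREB2, measured 3.04, 3.24 and 1.996 FPKM in Bmi1 shRNA cells, against 1.72, 2.01 and 1.84 FPKM in control cells. Bmi1 shRNA replicate 3 fell within the range of the control cells, and the gene was not called at a log2 fold change of 0.38 ± 0.14 (SE). Without that library it was called higher, at 0.54. It was also called higher, at 0.41, with each library scaled to the same upper quartile. With the trend with GC content and length removed, FBXL5 was not called, at 0.03, nor with both as medians over the transcripts, at -0.14.

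NCOA4, the adaptor that delivers ferritin to lysosomes so that its iron is released, measured 20.6, 20.1 and 21.6 FPKM in Bmi1 shRNA cells, against 15.5, 15.1 and 14.7 FPKM in control cells. All Bmi1 shRNA libraries were above all control libraries. The means of 20.7 ± 0.756 FPKM in Bmi1 shRNA cells and 15.1 ± 0.427 FPKM in control cells (SD, n = 3 each) gave a ratio of 1.38 and a log2 fold change of 0.43 ± 0.05 (SE).

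**Figure D3:**
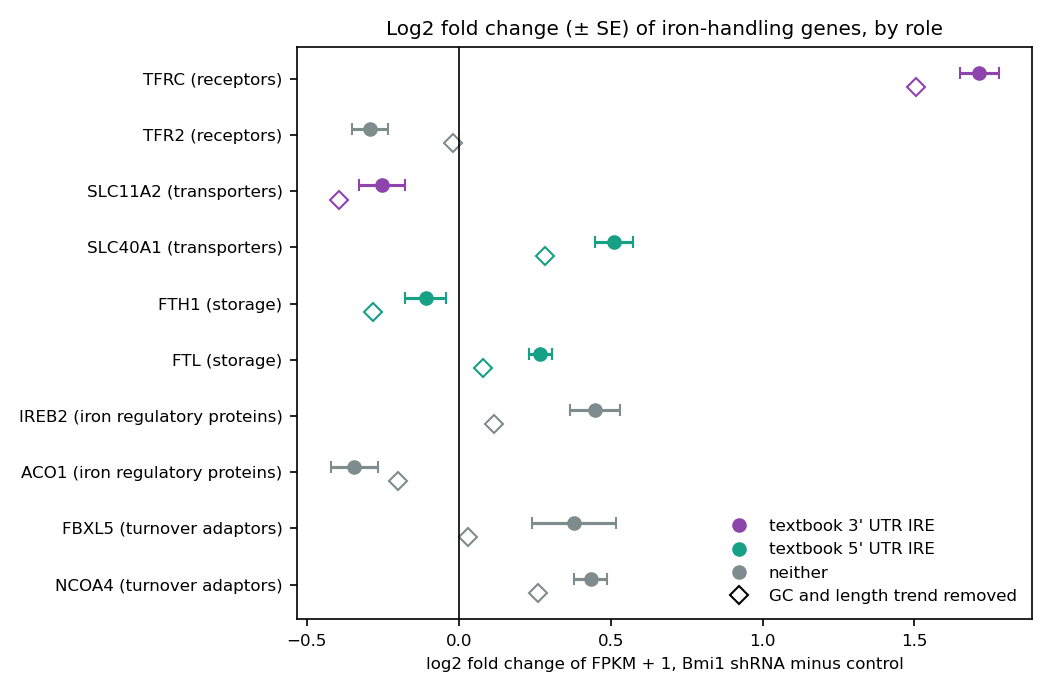
Log2 fold change (Bmi1 shRNA minus control, log2(FPKM + 1) scale) of the 10 iron genes with its standard error, as deposited and with the trend with GC content and length removed; colours mark a known 3′ or 5′ UTR IRE. TFRC lies at 1.71 and at 1.51 with the trend removed, and IREB2 at 0.45 and 0.12.

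Across all genes of these libraries the fold change went with the GC content of the transcript, and the 10 genes were read against that. In 10 equal bins of the tested genes by GC content, the median log2 fold change was 0.48 in the bin with the lowest GC content, 0.35 in the next and between -0.24 and -0.12 in each of the 6 highest bins. The 10 genes had a median GC content of 43.1%, against 50.4% over all tested genes. TFRC (41.5% GC) lay in a bin of 1023 rows, of which 1 had a larger log2 fold change. IREB2 (38.3% GC) lay close to the median of its own bin, 0.45 against 0.48, as did FBXL5, 0.38 against 0.35, and TFR2 (62.0% GC), -0.29 against -0.23. SLC11A2 (43.0% GC) lay on the other side of 0 from its bin, -0.25 against a median of 0.18, and FTL (56.3% GC) likewise, 0.27 against -0.21.

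With the trend with GC content and length removed from each library, 3 of the 10 genes were called higher and 3 lower, and their median log2 fold change was 0.05. In that fit 39.7% of all 10225 rows were called, 19.1% higher and 20.5% lower. TFRC (1.51), SLC40A1 (0.28) and NCOA4 (0.26) were higher, and SLC11A2 (-0.40), FTH1 (-0.28) and ACO1 (-0.20) lower. TFR2 (-0.02), FTL (0.08), IREB2 (0.12) and FBXL5 (0.03) were not called. When a gene's GC content and length were instead the medians of its transcripts, 5 were called: TFRC (1.19), SLC40A1 (0.59), NCOA4 (0.44) and FTL (0.45) higher, and SLC11A2 (-0.30) lower. In that fit 46.8% of all rows were called, 21.9% higher and 24.9% lower. TFRC, SLC40A1, NCOA4 and SLC11A2 were thus called in the same direction as deposited and in both versions. Whether the link with GC content is technical was not tested.

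**Figure D4:**
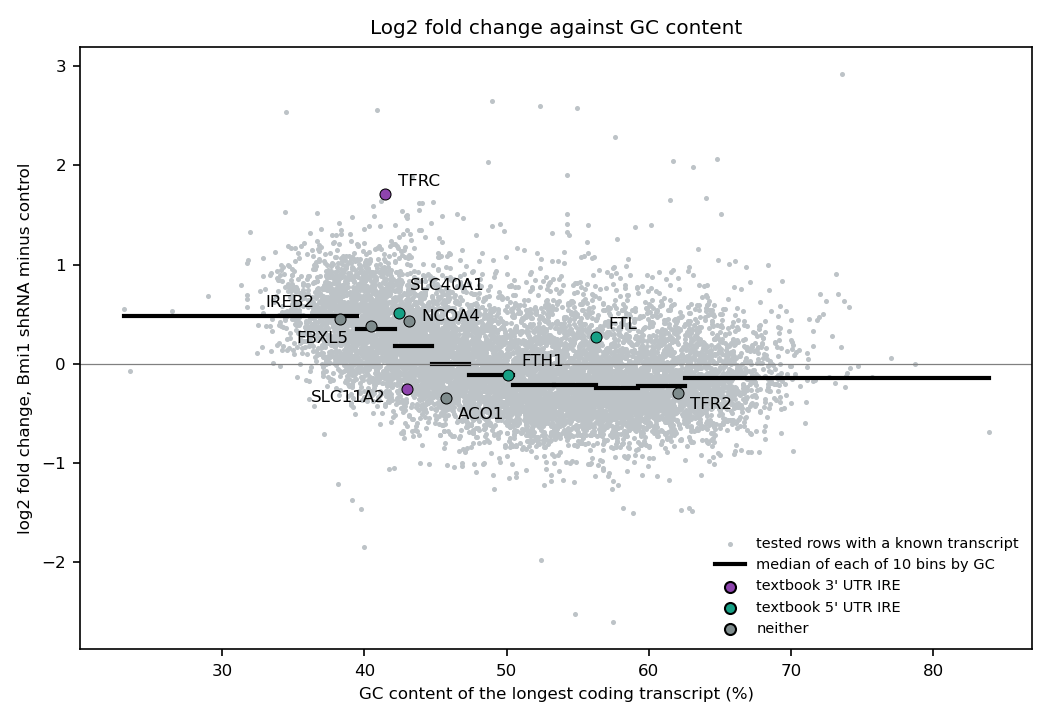
Log2 fold change (Bmi1 shRNA minus control) against GC content of the longest coding transcript in percent; grey points are all tested genes, black segments are the medians of 10 bins by GC content, and the named points are the 10 iron genes. TFRC, at 41.5% GC and 1.71, lies far above its bin's median of 0.35, and IREB2 lies near its own.

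mRNAs with a 3′ IRE (TFRC and SLC11A2) were compared with mRNAs with a 5′ IRE (FTH1, FTL and SLC40A1) by subtracting the mean log2(FPKM + 1) of the second class from that of the first in each library. The result was -5.27, -5.35 and -5.11 in Bmi1 shRNA libraries, against -5.74, -5.75 and -5.76 in control libraries. The groups did not overlap, and the Bmi1 shRNA mean lay 0.51 higher on the log2 scale. It lay 0.53 higher with the GC and length trend removed, and 0.091 higher with that trend removed by transcript medians. The classes were not uniform: of the 3′ class TFRC stood higher and SLC11A2 lower, and of the 5′ class FTL and SLC40A1 stood higher while FTH1 was not called. Without TFRC, a comparison chosen after seeing the data, the difference was -0.48, so its direction rested on TFRC. With TFRC alone against FTH1 and FTL it was 1.63.

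EPAS1 (HIF-2α), a transcription factor of the hypoxia response, carries a 5′ IRE and lies outside the 10 genes. Its hairpin, which has the extra unpaired base, is shown because the level of this mRNA differed in the other direction from FTL and SLC40A1.
EPAS1, 5′ UTR, chr2:46297479-46297507, plus strand: tacaatCctcggCAGTGtcctgagactgt

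EPAS1 measured 6.36, 6.18 and 6.88 FPKM in Bmi1 shRNA cells, against 12.8, 13.9 and 13.0 FPKM in control cells. It fell without overlap, with a log2 fold change of -0.93 (limma, adjusted p = 0.000267), and the call held with the GC and length trend removed, at -0.58. The 5′ IRE mRNAs described here therefore divided into higher (FTL, SLC40A1), not called (FTH1) and lower (EPAS1). CDC14A and CDC42BPA, listed with a 3′ IRE, and ALAS2, the red-cell 5-aminolevulinate synthase with a 5′ IRE, were below the filter.

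A match to the hairpin letters alone did not go with higher mRNA. Among tested coding genes outside the 10, 65 held a 3′ UTR match with 5 paired bases in their longest coding transcript. Of these, 18 (27.7%) were called higher and 24 (36.9%) lower, at a median log2 fold change of -0.16. Of 8 with such a match in the 5′ UTR, 1 was called higher and 3 lower, at a median of -0.19. Over all 9380 tested genes that were searched, 28.3% were called higher and 31.2% lower, at a median of -0.04. With the GC and length trend removed, the median was 0.02 for the 3′ UTR matches and -0.02 for the 5′ UTR matches. Over all rows of that fit it was -0.02. A match is a description of the letters and not evidence that a protein binds there.

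The wider set held 102 further genes of iron uptake, traffic, iron-sulfur assembly and heme, of which 99 had a row and 84 passed the filter. In all 27 rose, 25 fell and 32 were not called, at a median log2 fold change of 0.02. The background over all tested rows was 28.6% called higher and 28.5% called lower, at a median of -0.02. With the GC and length trend removed, 10 were higher and 23 lower, and with the trend removed by transcript medians 20 were higher and 23 lower. All of the 84 genes were in both fits. Among all rows, the former fit called 19.1% up and 20.5% down, and the latter 21.9% up and 24.9% down. The counts for single lists below stand against these same shares.

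**Figure D5:**
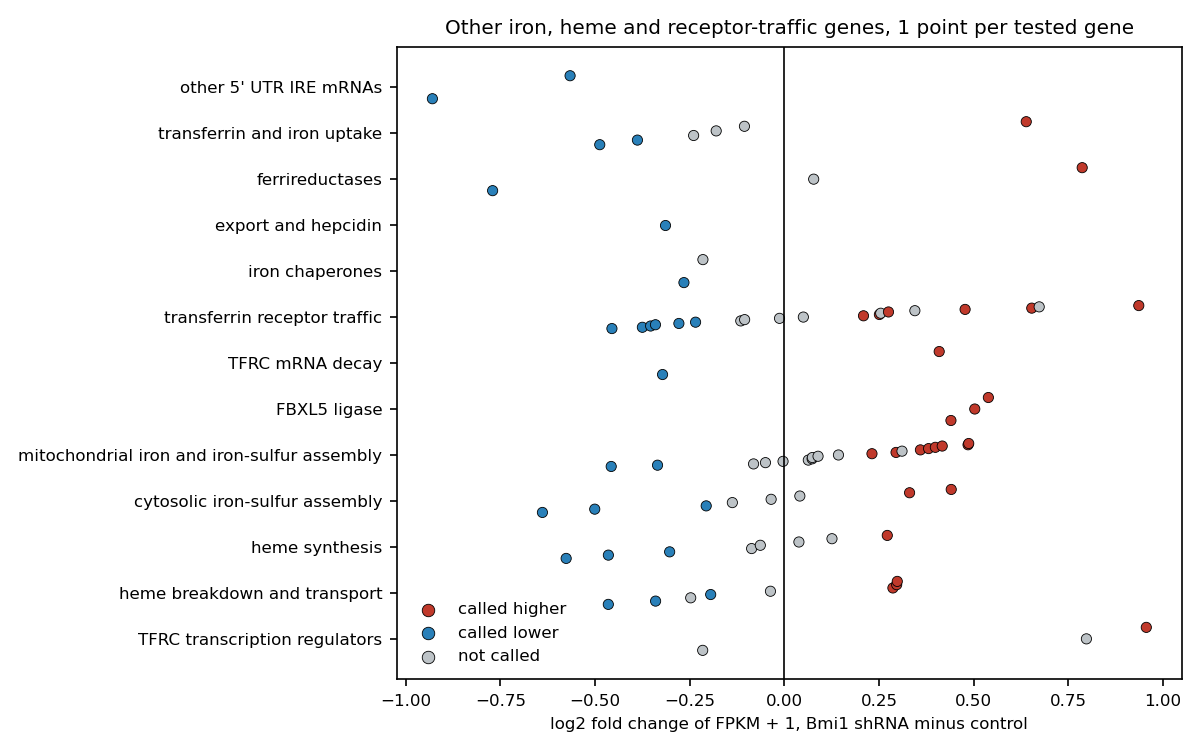
Log2 fold change (Bmi1 shRNA minus control) of the 84 tested iron genes outside the 10, by list; each point is a gene, and red (higher) and blue (lower) points passed the test. Most lists hold genes on both sides of 0, and the 3 FBXL5 ligase genes are all higher in Bmi1 shRNA cells.

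Of 6 genes of iron uptake, 1 rose and 2 fell. SLC39A8, a zinc, manganese and iron importer, rose to 3.70 ± 0.193 FPKM in Bmi1 shRNA cells, against 2.02 ± 0.143 FPKM in control cells (SD, n = 3 each; limma, adjusted p = 0.000644). LCN2, a lipocalin that binds iron-carrying siderophores, fell to 18.4 ± 1.41 FPKM in Bmi1 shRNA cells, against 26.2 ± 2.94 FPKM in control cells (SD, n = 3 each; adjusted p = 0.00636). HFE, which binds TFRC and is mutated in hereditary hemochromatosis, fell to 1.33 ± 0.184 FPKM in Bmi1 shRNA cells, against 2.06 ± 0.406 FPKM in control cells (SD, n = 3 each; adjusted p = 0.0282). The HFE call was lost without Bmi1 shRNA replicate 1 or 2 or control replicate 2 or 3 (adjusted p = 0.0520 to 0.0841), without a filter on low values (0.0757) and with the trend removed by transcript medians (0.110). MCOLN1, a lysosomal channel that lets iron out, was not called (log2 fold change -0.24, adjusted p = 0.0525) but was without Bmi1 shRNA replicate 2 (0.0330) and with totals of 1000000 (0.0250) or quantile normalization (0.0368).

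Among 3 tested ferrireductase genes, STEAP1 and STEAP3 moved in opposite directions. STEAP3, the reductase of the transferrin endosome in red-cell precursors, fell to 1.99 ± 0.343 FPKM in Bmi1 shRNA cells, against 4.09 ± 0.412 FPKM in control cells (SD, n = 3 each; limma, adjusted p = 0.00163). STEAP1 rose to 5.77 ± 0.139 FPKM in Bmi1 shRNA cells, against 2.93 ± 0.218 FPKM in control cells (SD, n = 3 each; adjusted p = 0.000349), but not with the GC and length trend removed (adjusted p = 0.0540). With the trend removed by transcript medians STEAP1 was called higher, at 0.33. FRRS1 was not called (adjusted p = 0.579). HEPH, the ferroxidase that works with the exporter, was the one tested gene of the export and hepcidin list and fell (log2 fold change -0.32, adjusted p = 0.00914), though not with the trend removed. Hepcidin itself (HAMP) was below the filter. Of the iron chaperones, which hand iron to ferritin, PCBP1 fell (log2 fold change -0.27, adjusted p = 0.0103) and PCBP2 was not called (-0.21, adjusted p = 0.0689). The PCBP1 call was lost with the trend removed by transcript medians (adjusted p = 0.661), and PCBP2 was called lower without control replicate 2 (0.0472), with the replicate number as a block (0.0446), with totals of 1000000 (0.0249) and with quantile normalization (0.0128).

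Of 19 genes that move TFRC through endosomes and back to the surface, 6 rose and 6 fell. VPS35, the core of the retromer complex, rose to 9.38 ± 0.626 FPKM in Bmi1 shRNA cells, against 4.44 ± 0.558 FPKM in control cells (SD, n = 3 each; limma, adjusted p = 0.000574). RAB12, a small GTPase that in mouse cells directs the receptor to lysosomes, fell to 11.4 ± 0.491 FPKM in Bmi1 shRNA cells, against 15.1 ± 0.347 FPKM in control cells (SD, n = 3 each; adjusted p = 0.00203). RAB11A, of the recycling endosome, and EXOC6, an exocyst subunit needed for transferrin recycling in mouse red-cell precursors, rose by 0.48 and 0.65 on the log2 scale (adjusted p = 0.00147 and 0.000796). With the GC and length trend removed, 1 gene of this list was higher and 5 lower, and RAB11A and EXOC6 were not called. With the trend removed by transcript medians, 4 were higher and 8 lower, EXOC6 (0.23) among the higher, and RAB11A was not called.

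The nucleases and binding proteins that shorten the life of TFRC mRNA were split. ZC3H12A (regnase-1), which cleaves the TFRC 3′ UTR, fell to 7.32 ± 0.198 FPKM in Bmi1 shRNA cells, against 9.41 ± 0.387 FPKM in control cells (SD, n = 3 each; limma, adjusted p = 0.0037). RC3H2 (roquin-2) rose to 2.04 ± 0.278 FPKM in Bmi1 shRNA cells, against 1.28 ± 0.0859 FPKM in control cells (SD, n = 3 each; adjusted p = 0.00663). Neither was called with the trend removed. The other subunits of the FBXL5 ligase, CUL1 (log2 fold change 0.44, adjusted p = 0.00142), RBX1 (0.50, adjusted p = 0.0019) and SKP1 (0.54, adjusted p = 0.0193), rose. These serve many other F-box proteins as well. The SKP1 call was lost without Bmi1 shRNA replicate 2 or 3 or control replicate 2 or 3 (limma, adjusted p = 0.0513 to 0.0620). It was also lost without a filter (0.0541), with the trend removed (0.0719) and with it removed by transcript medians (0.479).

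Of 3 listed transcriptional regulators of TFRC, 1 rose. HIF1A, the oxygen-regulated subunit of hypoxia-inducible factor 1, measured 9.62, 9.97 and 11.7 FPKM in Bmi1 shRNA cells, against 5.20, 4.61 and 4.81 FPKM in control cells. It rose without overlap, with a log2 fold change of 0.96 (limma, adjusted p = 0.000432) and 0.46 with the GC and length trend removed. HIF1A thus rose where EPAS1, which encodes the related HIF-2α subunit, fell. ARNT, their shared partner, was not called (-0.22, adjusted p = 0.0678), but was called lower with totals of 1000000 (0.0294), quantile normalization (0.0327) or the trend removed by transcript medians (0.0403). MYC measured 23.1, 10.5 and 1.59 FPKM in Bmi1 shRNA cells, against 17.4, 1.89 and 1.57 FPKM in control cells, and was not called (adjusted p = 0.537). Its libraries varied more within each group than the groups differed.

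In mitochondrial iron handling and iron-sulfur cluster assembly, 8 of 19 genes rose and 2 fell, while 3 were higher and 3 lower after removal of the trend, and 5 higher and 2 lower after its removal by transcript medians. NFS1, the cysteine desulfurase that supplies the sulfur of the clusters, fell to 6.50 ± 0.878 FPKM in Bmi1 shRNA cells, against 9.25 ± 0.126 FPKM in control cells (SD, n = 3 each; limma, adjusted p = 0.00598). FDX1, a ferredoxin, and BOLA3, a late-acting assembly factor, rose by 0.36 and 0.42 on the log2 scale (adjusted p = 0.0057 and 0.00279), though not with the trend removed. BOLA3 was called higher, at 0.42, with the trend removed by transcript medians, and FDX1 was not. Of 8 genes of cytosolic iron-sulfur assembly 2 rose and 3 fell. Among them MMS19 (-0.50, adjusted p = 0.00118), NDOR1 (-0.64, adjusted p = 0.00344) and CIAO1 (-0.21, adjusted p = 0.0137) fell, and CIAO2B (0.33, adjusted p = 0.00542) rose. CIAO2B was not called with the trend removed but was called higher, at 0.46, with it removed by transcript medians. The CIAO1 call was lost without control replicate 3 (adjusted p = 0.0530) and with the trend removed by transcript medians (0.645).

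Of 8 heme synthesis genes 1 rose and 3 fell. ALAS1, the rate-limiting enzyme outside red-cell precursors, fell to 22.0 ± 1.49 FPKM in Bmi1 shRNA cells, against 33.3 ± 1.21 FPKM in control cells (SD, n = 3 each; limma, adjusted p = 0.000867). ALAD, the next enzyme, fell by 0.46 on the log2 scale (adjusted p = 0.000889) and UROD, further along the pathway, rose by 0.27 (adjusted p = 0.00513). FECH, which inserts iron into the ring, fell by 0.30 on the log2 scale (adjusted p = 0.0211), a call that was lost without control replicate 2 or 3 (adjusted p = 0.0662 and 0.0527) and without a filter (0.0561). Of 8 genes of heme breakdown and transport 3 rose and 3 fell. HMOX1, the inducible heme oxygenase that frees iron from heme, fell to 11.9 ± 0.375 FPKM in Bmi1 shRNA cells, against 15.4 ± 0.706 FPKM in control cells (SD, n = 3 each; adjusted p = 0.00334). FLVCR2, described as a heme and choline transporter, fell by 0.46 on the log2 scale (adjusted p = 0.00436). HMOX2 (-0.19, adjusted p = 0.0107) fell and PGRMC1 (0.30, adjusted p = 0.00562) rose, neither with the trend removed in either version.

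The rows whose values over the 6 libraries were most like those of TFRC, by Pearson's r of log2(FPKM + 1), included TPR, GPBP1, ACBD3 and IL6ST, each at 0.999. The lowest were CDKN1B (-0.9997) and EDEM1 (-0.9996), with DGLUCY, PASK and GINS4 next at -0.999. The groups lie apart in TFRC, so r here mostly records which rows differ between the groups: of 10205 rows compared, 1539 had r above 0.95 and 1081 were as strongly negative. IL6ST, the signalling chain shared by receptors of the interleukin-6 family, averaged 3.33 FPKM in Bmi1 shRNA cells and 1.19 FPKM in control cells. Of the other iron genes, NCOA4 (0.994), SLC40A1 (0.990), FTL (0.974) and IREB2 (0.9502) were most like TFRC, and TFR2 (-0.978) least.

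BMI1 itself measured 1.49, 1.19 and 2.65 FPKM in Bmi1 shRNA cells, against 6.65, 5.34 and 6.09 FPKM in control cells, and fell by 1.37 on the log2 scale (limma, adjusted p = 0.00162). Bmi1 shRNA replicate 3, which kept the most BMI1 of its group, was the nearest of its group to the control cells in SLC11A2, FTL, ACO1 and FBXL5 and the farthest from them in TFRC, IREB2 and NCOA4. The depth of the libraries is unknown, since the table holds no counts. The FPKM of a library summed to 352800 to 360371 in Bmi1 shRNA cells and 332910 to 341268 in control cells. All 6 biliary epithelial markers were at 1 FPKM or more, with a summed level of 405 to 458 FPKM in Bmi1 shRNA cells and 504 to 523 FPKM in control cells. Most of that sum was KRT19 and EPCAM. KRT7 averaged 2.80 FPKM in Bmi1 shRNA cells and 2.74 FPKM in control cells, and CFTR 3.78 and 2.01 FPKM. None of the 3 mesenchymal and 2 endothelial markers with a row reached 1 FPKM, VIM among them. The 3 hepatocyte markers with a row summed to 17.6 to 19.7 FPKM in Bmi1 shRNA cells and 5.84 to 7.01 FPKM in control cells, nearly all of it TTR, with APOA1 and CYP3A4 near 0. The 4 intestinal markers with a row summed to 156 to 184 FPKM in Bmi1 shRNA cells and 171 to 182 FPKM in control cells, nearly all of it KRT20 and VIL1, with CDX2 and CDH17 near 0. HBA1, the only erythroid marker of 4 with a row, stood at 4.24 to 5.49 FPKM in Bmi1 shRNA cells and 8.73 to 9.54 FPKM in control cells, and CD68, the only immune marker of 3 with a row, stood at 6.78 to 8.39 FPKM in Bmi1 shRNA cells and 11.1 to 11.96 FPKM in control cells. The part of these markers in the differences above was not tested. The p-values measure the spread between 3 transfections of 1 line.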

How the data were processed

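The authors deposited 1 table of FPKM for all 6 libraries. The tools named in the submitters' processing notes are StringTie 1.3.0, HISAT2 2.0 and Bowtie 0.12.2, and the build named there is mm8, a mouse build, although the labels and gene names are human; the build and annotation that were used are therefore not settled, and overlapping genes are uncertain, as strand use is not stated. The columns Sc and Sh were matched to scrambled and Bmi1 shRNA by the replicate numbers of the titles. The labels also call the control an siRNA, and the extraction text names adipose material. Reads could not be recovered from the FPKM (at most 2.19% of low rows shared 1 ratio between libraries), so no count test was run.

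R 4.3.3 with limma 3.58.1 was used to test log2(FPKM + 1), with group as the sole term and a variance trend, over the 11016 rows that averaged 1 FPKM or more, and Benjamini-Hochberg adjustment over them. Fold changes on this scale understate those of low genes. To remove the GC and length trend, the deviation of each library was regressed on splines of both (5 degrees of freedom), with GC content and length from GENCODE 29 (GRCh38); true changes that go with GC content are removed too. The fits were also run on simulated data in which few rows changed and the GC trend was linear. The deposited data differ in both, so nothing about them is read from that run. Sequences come from GENCODE 29 transcripts. Named are the 10 genes, the IRE mRNAs, up to 4 genes of each further list with the smallest p, tested ferritin pseudogenes, BMI1, and the 5 rows most and the 5 least like TFRC. Some genes that this rule names are not reported here. The genes and lists were chosen with earlier results of these data known. Alternatives were other pseudocounts, filters, scalings, the replicate block and each library left out.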

Additional observations from a re-analysis of the deposited data

How the results depend on the processing

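Over 16 alternatives none of the 155 log2 fold changes of the 10 iron genes changed sign where called, and 125 moved by less than the spread between replicates. Some of the 125 could not move. By construction the fold change stays the same with no filter, a 5 FPKM filter, the replicate block or no variance trend. With the trend removed by medians over transcripts, FBXL5 turned from 0.38 to -0.14 and FTH1 from -0.11 to 0.03, neither of them called. Of 11016 rows tested as deposited, 6295 were called. The filter of 5 FPKM left 5641 rows, of which 3478 were called. Of 10225 rows with the GC and length trend removed, 4057 were called, and 4786 with it removed by medians over transcripts. Of the 10 genes 8 were called as deposited, 4 with a filter of 5 FPKM, which drops SLC11A2, SLC40A1, IREB2, FBXL5 and TFR2, and 5 with the trend removed by medians over transcripts. Of the wider genes 27 rose as deposited, 10 with the trend removed and 20 with it removed by medians over transcripts; the cause was not tested.

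The 3′ minus 5′ IRE difference of 0.51 was 0.53 with the GC and length trend removed and 0.091 with it removed by transcript medians. It was 0.89 with all measured IRE mRNAs and 1.63 for TFRC against FTH1 and FTL. Without TFRC, a comparison added after seeing the data, it was -0.48. The 5 FPKM filter gives it no value, as SLC11A2 and SLC40A1 drop out.

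With any 1 library left out, 5226 to 6122 rows and 7 to 9 of the 10 genes were called, 20 to 25 wider genes rose, 21 to 26 fell, and the IRE difference was 0.44 to 0.56. With the replicate number as a block, 5658 rows and 8 of the 10 genes were called. Libraries with the same number did not deviate together (correlations of 0.00374, -0.0791 and -0.0234). These values cannot show whether the libraries were prepared in pairs. Count tests were not run, since the file holds no counts. Unknown depth and 3 libraries a group limit the low genes most.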
